A study of Arabidopsis thaliana with 12 samples.

Results

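Leaf RNA of 3 libraries labelled anac017 was set against that of 3 libraries labelled anac082, which makes 6 of the 12 RNA-seq libraries of the series. The members are the libraries that carry these names in their titles, and no measured value entered the choice. The other 6 libraries, 3 labelled anac090 and 3 of the wild type, are not in the contrast and serve only to estimate the spread between libraries and to give a background level. All plants were Arabidopsis thaliana of the Columbia ecotype, kept in long days in a controlled growth room, and all leaves were 18 days old with no treatment. By their labels anac017, anac082 and anac090 are knockout lines, each with a T-DNA insertion in 1 NAC gene. The seed came from the SALK, SAIL or GABI-KAT collections. The collection, the allele and the site of insertion of each line are not given in the sources used here, and each genotype is a single line. The labels do not tell whether replicate libraries stem from different plants. The p-values therefore reflect only how far these libraries scatter, part of which may be technical.

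ANAC017 and ANAC082 are NAC transcription factors, a plant family with a shared DNA-binding domain and many members tied to stress and ageing. ANAC017 is anchored in the membrane of the endoplasmic reticulum and is released when mitochondria fail. It then switches on nuclear genes of the mitochondrial dysfunction response, such as the alternative oxidase gene AOX1A. ANAC082 acts in the nucleus in the response to disturbed ribosome assembly. By its title the series is about NAC networks and the timing of cell death with age, and setting these 2 lines against each other shows where their leaves differ without the wild type as a go-between.

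The values are the log2 values the authors deposited, which had been made alike in distribution between libraries, so read depth is unknown. Differences are anac017 minus anac082 with the standard error of a limma fit to all 12 libraries, and a gene is called at a Benjamini-Hochberg adjusted p under 0.05 over the 16817 genes tested. Of the 6 libraries, anac082 replicate 1 stood apart. On the first principal component of all 12 libraries, which held 51.0% of the variance, the anac017 libraries lay at 9.31, 9.97 and 21.6, and the anac082 libraries at -27.0, 5.70 and 3.6. The wild type libraries lay at -35.3, -35.6 and -29.7, so anac082 replicate 1 was nearer to them than to the other anac082 libraries. An anac090 library, replicate 3, lay farthest out, at 74.1. Photosynthesis genes were high in both groups, as in leaf. The mean log2 value of the 20 of 20 tested was 10.7, 10.8 and 10.7 in anac017, and 10.8 in each anac082 library. Their differences were -0.28 to 0.06 with a median of -0.01. Values so near the top are held alike by the normalization (LHCB1.3 was at 12.3 in all 12 libraries), so these small differences say little. The floral regulator AP1 and the epidermis gene PDF1 were listed at 0 in all 6 libraries. None of the 14 tested markers of guard cells, vasculature and epidermis was called, with list medians of -0.09, 0.07 and 0.00, and the markers of dividing cells and of flowers were all under the filter on low values. In bulk leaf, fewer cells of a type and less RNA per cell cannot be told apart.

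Both targeted transcripts were higher, not lower, in the line named for them. Transcript level alone does not tell whether a working protein is made, so it cannot check the knockout labels. Every direction given is therefore that of the libraries labelled anac017 and anac082. ANAC017 (AT1G34190, chromosome 1, 12451451 to 12454142, TAIR10) had log2 values of 6.68, 6.84 and 6.72 in the libraries labelled anac017, against 5.98, 5.91 and 5.85 in those labelled anac082. The lowest anac017 library lay above the highest anac082 library, and the anac090 and wild type means of 6.13 and 5.89 were also below it. The difference was 0.83 ± 0.14 or 1.78-fold (adjusted p = 0.0204, limma). This call was lost when any of the 6 libraries was left out (adjusted p = 0.0517 to 0.107), with differences of 0.79 to 0.87.

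ANAC082 (AT5G09330, listed as VNI1 in the table, chromosome 5, 2892365 to 2895422) had values of 5.99, 6.0 and 6.19 in the libraries labelled anac017 and of 9.79, 9.75 and 9.94 in those labelled anac082. The groups were far apart. The difference, the lowest of all called genes, was -3.76 ± 0.11, or 13.6-fold lower in anac017 (adjusted p = 3.7e-08, limma), and it held with every library left out in turn. The anac090 and wild type means of 5.37 and 5.02 were below both groups. ANAC090 (AT5G22380, chromosome 5, 7408777 to 7410102), which is targeted in neither line, had 3.43, 1.96 and 2.53 in anac017 and 2.51, 2.39 and 2.44 in anac082, and the groups overlapped (0.19 ± 0.30, adjusted p = 0.857). Exact two-sided permutation tests of 3 against 3 libraries gave p = 0.1 for ANAC017 and for ANAC082, the smallest they can give, and p = 0.7 for ANAC090. None of the 4 tested genes within 10000 bases of ANAC017 and none of the 5 beside ANAC082 was called. With the replicate block 1 of them was, AT5G09300, annotated as a subunit of a mitochondrial 2-oxoisovalerate dehydrogenase (-0.79 ± 0.25, adjusted p = 0.234, and 0.0158 with the block). Next to ANAC017 were the NAC factor gene NAC016 (0.37 ± 0.29, adjusted p = 0.695) and the receptor kinase gene SERK2 (0.44 ± 0.14, adjusted p = 0.218). Which part of each transcript was read is not recorded, so a transcript interrupted by an insertion and a whole one cannot be told apart.

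**Figure D1:**
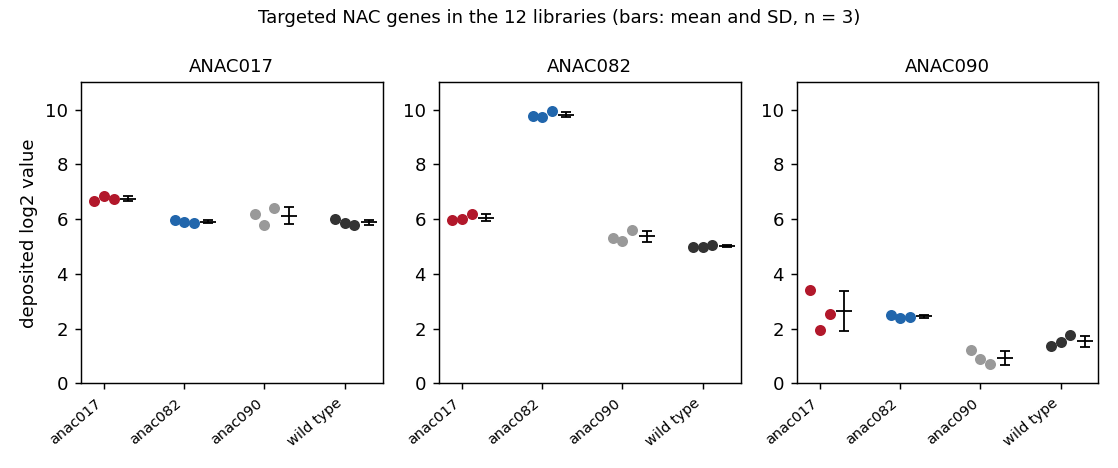
Deposited log2 values of ANAC017, ANAC082 and ANAC090 in every library, with anac017 first, then anac082, anac090 and wild type, and bars for mean and SD (n = 3). ANAC017 averaged 6.75 in anac017 libraries and 5.91 in anac082 libraries, and ANAC082 averaged 6.06 in anac017 libraries and 9.82 in anac082 libraries.

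Across the leaf transcriptome few genes separated the lines, and most of those were higher in anac017. In anac017 a total of 130 genes were higher than in anac082, 0.773% of those tested, and 20 were lower, 0.119%. At least 2-fold differences were seen in 23 of the genes called higher and in 6 of those called lower. Of all genes tested 145 differed by as much, 29 of them called, so most differences of this size did not pass. The median difference over all genes was -0.01. The genes called higher lay on all 5 chromosomes, with 40, 21, 23, 20 and 26 on chromosomes 1 to 5. Of all genes tested, 4428, 2524, 3341, 2547 and 3888 lay on these chromosomes. The spread over chromosomes is therefore not read as a trait of the called genes. For 122 of the 130 (93.8%) the wild type mean was nearer to the anac082 mean than to the anac017 mean, and the same held for 14 of the 20 genes called lower (70%) and for 69.3% of all genes tested. With the replicate number as a block in the fit, which the shared numbers allow, 200 genes were higher (1.19%) and 55 lower (0.327%). Among them were 127 of the 130 and 18 of the 20. Every call given with libraries left out is from the fit without the block.

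The counts rest on each library. Without anac017 replicate 1, 2 or 3 they were 29 and 6, 35 and 7, and 34 and 6 (higher and lower), and without anac082 replicate 2 or 3 they were 39 and 11, and 37 and 8. Without anac082 replicate 1, the library that stood apart, they were 88 and 10, and without it and anac090 replicate 3 together 163 and 36. Leaving out an anac090 or wild type library changes only the estimate of the spread, yet the counts were 210 and 71 without replicate 3 of anac090, 153 and 34 without its replicate 2, 97 and 13 without its replicate 1, and 101 and 13 without wild type replicate 1. Each remaining wild type library gave counts between these extremes. Of the 28 called genes that are named in the account by rule or list, 11 kept their call with any of the 12 libraries left out: ANAC082, HIS1-3, QQS, ERF1-1, AT2G45023, AT1G22403, AT4G32240, AT4G39930, AT2G13975, AT1G43590 and AT2G23120.

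**Figure D2:**
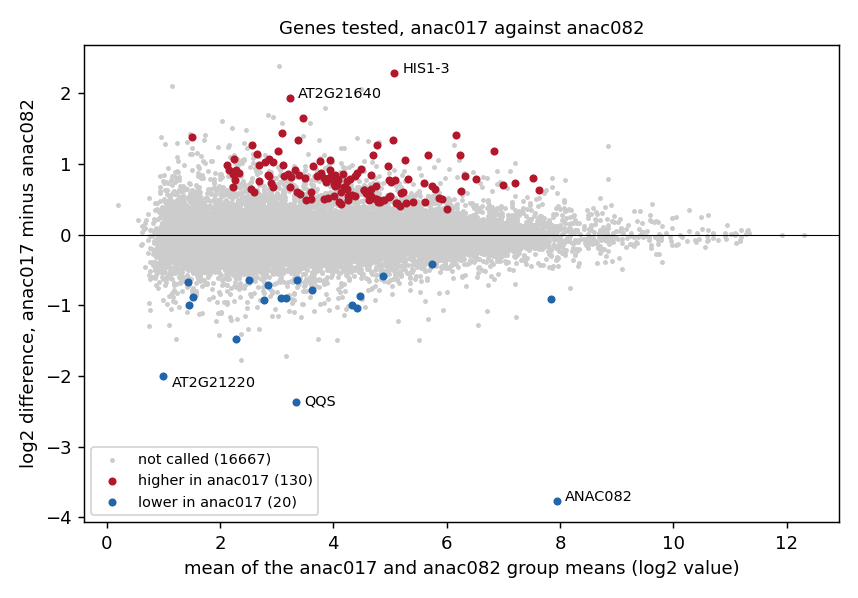
Log2 difference (anac017 minus anac082) of the 16817 genes tested against the mean of both group means, with the 130 genes called higher in anac017 in red, the 20 called lower in blue and the others in grey. HIS1-3 lies at 2.29, QQS at -2.37 and ANAC082 at -3.76.

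Among called genes the largest rise was that of HIS1-3 (AT2G18050, chromosome 2, 7845923 to 7846884), a linker histone variant known to be induced by drought. It had log2 values of 6.44, 6.37 and 5.82 in anac017, against 4.02, 4.27 and 3.47 in anac082, a difference of 2.29 ± 0.23 or 4.88-fold (adjusted p = 0.00132, limma). The groups were far apart, and the anac090 and wild type means of 5.51 and 5.21 fell between them.

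Several of the next largest rises were in genes that make no known protein. The noncoding RNA gene AT2G45023 (chromosome 2, 18570156 to 18572173) had 4.30, 4.29 and 4.27 in anac017, against 2.78, 2.55 and 2.57 in anac082 (1.65 ± 0.11, 3.14-fold, adjusted p = 0.000123). AT1G22403, also noncoding, had 4.02, 3.66 and 3.77 against 2.30, 2.42 and 2.42 in anac082 (1.43 ± 0.13, adjusted p = 0.000456). Neither pair of groups overlapped, and wild type means lay with anac082. Another, AT2G07042, differed by 1.34 ± 0.23 (adjusted p = 0.0260), a call lost without any of the 6 libraries (adjusted p = 0.0781 to 0.122). The transposable element gene AT2G13975 (chromosome 2, 5864884 to 5865600) had 5.54, 5.31 and 5.37 in anac017 against 4.18, 4.12 and 4.11 in anac082 (1.27 ± 0.10, adjusted p = 0.000198). AT2G13970, the transposable element gene beside it, was called as well (0.83 ± 0.12, adjusted p = 0.00949). By the annotation, 14 of the 130 genes called higher were noncoding RNA genes (10.8%), against 205 of all 16817 (1.22%), and 5 were transposable element genes (3.85%), against 84 of all (0.499%). None of the 20 called lower was noncoding and 2 were transposable element genes. These classes were looked at after the values were seen. Of the 130 genes called higher, 30 overlap another entry of the table, and 2 of the 20 called lower do. Genes without an entry are not counted. The share over all genes tested was not taken, so these counts are not read as a trait of the called genes. The kit marks strand, but whether the counting used it is not stated, so reads of overlapping genes may not be told apart.

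Among the 10 largest rises were also genes of unknown function. AT4G32240 had 6.95, 6.81 and 6.84 in anac017 against 5.69, 5.34 and 5.33 in anac082 (1.41 ± 0.14, adjusted p = 0.00115). AT4G39930 differed by 1.27 ± 0.15 (adjusted p = 0.00433), and the gene beside it, AT4G39925, annotated with an AT hook DNA-binding motif, by 1.19 ± 0.19 (adjusted p = 0.0163). AT1G45165, which overlaps AT1G45163, differed by 1.34 ± 0.23 (adjusted p = 0.0219), a call kept among the 6 libraries only without anac082 replicate 1 (adjusted p = 0.0544 to 0.116 otherwise).

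QQS (AT3G30720, chromosome 3, 12349047 to 12349832), an orphan gene of Arabidopsis known for its part in starch and protein allocation, had the second largest fall among called genes. It had log2 values of 2.40, 2.40 and 1.65 in anac017, against 4.51, 4.49 and 4.55 in anac082. The anac082 libraries were almost level and all far above those of anac017, and the anac090 and wild type means of 2.60 and 3.17 lay between. The difference was -2.37 ± 0.19, or 5.16-fold lower (adjusted p = 0.000228, limma), and it held with every library left out in turn. QQS was the only gene called among the 6 tested genes of sugar starvation and touch, against 0.892% of all genes called. The other members of that list ranged from -0.76 to 0.49. AT2G21220, a gene of the SAUR family of early auxin-responsive genes, was listed at 0 in all 3 anac017 libraries and at 2.42, 1.84 and 1.75 in anac082 (adjusted p = 0.0287, lost without any of the 6 libraries, 0.0929 to 0.119).

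The other 7 of the 10 largest falls were smaller. The transposable element gene AT1G43590 had 1.75, 1.42 and 1.48 in anac017 and 3.16, 3.06 and 2.87 in anac082 (-1.48 ± 0.15, adjusted p = 0.00115). AT2G23120, a late embryogenesis abundant protein gene of group 6, had 7.49, 7.33 and 7.35 in anac017 and 8.40, 8.17 and 8.33 in anac082 (-0.91 ± 0.10, adjusted p = 0.00212). In both genes the groups were well apart. Next came the cell wall protein gene AT4G18280 (-1.04 ± 0.19), AT5G01445 (-1.0 ± 0.20) and AT5G63500 (-1.0 ± 0.18), both of unknown function, CRSP (-0.93 ± 0.15), a secreted protease of the stomatal response to carbon dioxide, and HVA22C (-0.90 ± 0.16), whose relatives in barley respond to abscisic acid, with adjusted p of 0.0214 to 0.0440. Each of these 5 calls was lost without at least 4 of the 6 libraries (adjusted p up to 0.184). The calls held without anac082 replicate 2 for AT4G18280, without anac017 replicate 2 for AT5G63500, and without anac017 replicate 3 or anac082 replicate 2 for CRSP. Leaving out anac090 replicate 1 also ended the calls of AT4G18280, AT5G01445 and AT5G63500, as did wild type replicate 3 for AT4G18280, wild type replicate 1 for AT5G01445 and AT5G63500, and wild type replicate 2 for AT5G63500.

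Genes of the mitochondrial dysfunction response, the pathway ANAC017 is known to control, were higher in the libraries labelled anac017 or did not pass. Of 19 listed genes 14 were tested, 3 were higher (either-direction background 0.892%) and none was lower, with a median difference of 0.42 against -0.01 for all genes. The list was chosen with earlier results of these data known. AT2G21640, known as UPOX and as a marker of oxidative stress, had 4.34, 4.42 and 3.84 in anac017, against 2.85, 2.21 and 1.71 in anac082 (1.94 ± 0.34, 3.84-fold, adjusted p = 0.0255). UGT74E2, which attaches glucose to the auxin precursor indole-3-butyric acid, had 1.66, 2.77 and 2.19 against 0.58, 1.14 and 0.74 in anac082 (1.39 ± 0.27, 2.62-fold, adjusted p = 0.0448). Its means were 0.82 in anac082, 0.96 in anac090 and 0.59 in wild type. It thus passed the filter on low values only through its anac017 libraries, and the counts of this list include it. SOT12, a sulfotransferase, had 4.94, 5.23 and 4.79 against 4.48, 4.17 and 4.36 in anac082 (0.65 ± 0.12, 1.57-fold, adjusted p = 0.0298). In all 3 genes the groups did not overlap, and the wild type means lay with anac082. Each call was lost without at least 4 of the 6 libraries. Among these it held without anac082 replicate 1 for UPOX (adjusted p = 0.0594 to 0.119 where lost), without anac017 replicate 1 for UGT74E2 (0.0675 to 0.173), and without anac017 replicate 3 or anac082 replicate 1 for SOT12 (0.0541 to 0.131). The calls of UGT74E2 and SOT12 were also lost without anac090 replicate 1 and without any of the wild type libraries.

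The other 11 tested genes did not pass. AT2G32020, an acetyltransferase family gene, lay just outside the threshold at 0.90 ± 0.18 (adjusted p = 0.0508). The transporter gene ABCB4 had 3.27, 3.26 and 3.34 in anac017 against 2.53, 2.79 and 2.36 in anac082 (0.73 ± 0.18, adjusted p = 0.113), and NAC13, a NAC factor of the same response, 3.71, 3.70 and 3.77 against 3.19, 3.11 and 3.10 in anac082 (0.59 ± 0.16, adjusted p = 0.152). The groups of neither gene overlapped, although neither passed. AOX1A itself, the classic target of ANAC017, had 5.42, 5.76 and 5.49 in anac017 and 5.73, 5.6 and 5.54 in anac082, and the groups overlapped (-0.07 ± 0.16, adjusted p = 0.919). The alternative dehydrogenase gene NDA1 was at -0.49 ± 0.21 (adjusted p = 0.405), and its anac017 libraries all lay below those of anac082. In all, 7 of the 14 had every anac017 library above every anac082 library, against 11.3% of all genes, and 1 had the reverse, against 12.5% (23.9% in either direction). UGT74E2, which passed the filter only through its anac017 libraries, is among the 7. Of the 5 members under the filter on low values, HSP23.5, a mitochondrial small heat shock protein gene, was listed at 1.5, 1.43 and 1.46 in anac017 and at 0.47, 0.20 and 0.39 in anac082.

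**Figure D3:**
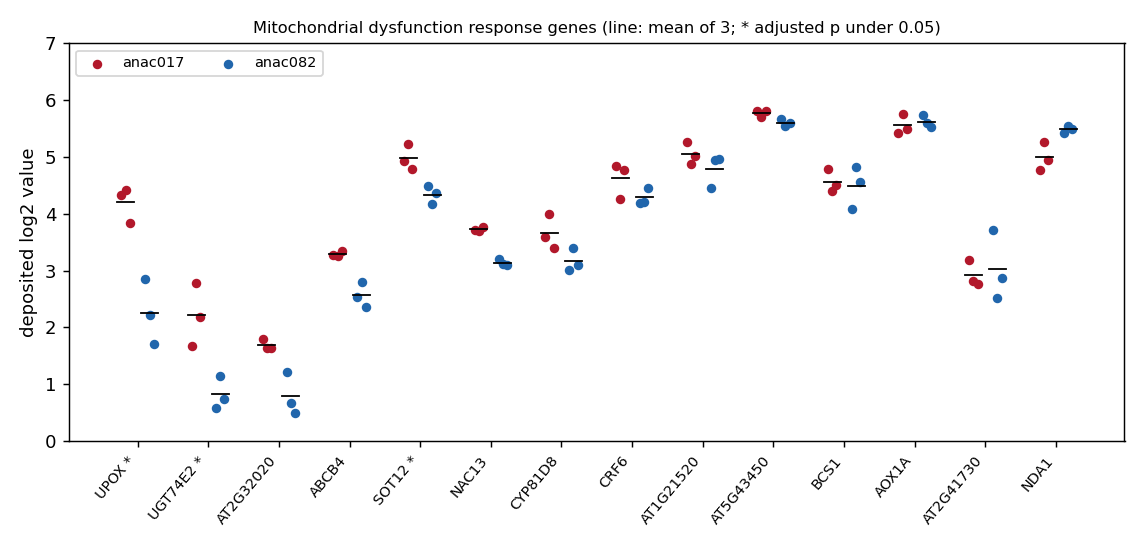
Deposited log2 values of the mitochondrial dysfunction genes that were tested (14) in each library, anac017 in red and anac082 in blue, with a line at the mean of 3 and a star for an adjusted p under 0.05. UPOX, UGT74E2 and SOT12 carry the star, with differences of 1.94, 1.39 and 0.65, and AOX1A lies level at -0.07.

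The promoters of this list are shown because the factor named by the label is known to bind a motif in them, the mitochondrial dysfunction motif. The motif reads CTTG, any 5 letters, CA, any letter and G. It was searched on both strands of the 500 bases before the deposited start of each gene, in the TAIR10.1 assembly of RefSeq. Its letters can match the same place on both strands. Matches stood before 8 of the 14 tested list genes (57.1%) and before 446 of all 16682 tested genes with a promoter read (2.67%). The motif is known from promoters of this list, so its share there is no test. Of 128 genes called higher 7 had a match (5.47%), the list members UPOX and UGT74E2 among them. The windows of 53 bases are given on the strand of the gene, and the capitals mark the motif.
UPOX (AT2G21640, chromosome 2, 9254307 to 9254359, plus strand): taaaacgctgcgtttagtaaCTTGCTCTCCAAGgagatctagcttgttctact
CYP81D8 (AT4G37370, chromosome 4, 17571851 to 17571903, minus strand): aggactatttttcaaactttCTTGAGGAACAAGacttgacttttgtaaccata
CRF6 (AT3G61630, chromosome 3, 22804680 to 22804732, plus strand): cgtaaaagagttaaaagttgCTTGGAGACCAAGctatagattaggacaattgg
AT2G41730 (chromosome 2, 17409341 to 17409393, plus strand): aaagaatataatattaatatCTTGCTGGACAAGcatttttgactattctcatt
NDA1 (AT1G07180, chromosome 1, 2204014 to 2204066, plus strand): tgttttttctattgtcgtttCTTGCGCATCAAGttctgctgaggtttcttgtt
The windows of the other matches are centred within the RefSeq annotation of their own gene, so the matched letters alone are given. Overlap of any window with other genes was not checked. The letters read CTTGGTCGCCACG for UGT74E2, CTTGTTCGTCAAG for ABCB4, and CTTGGCGACCACG and CTTGCTCTCCAAG for AOX1A. UPOX and AOX1A thus share the 13 letters CTTGCTCTCCAAG, while UPOX differed by 1.94 and AOX1A by -0.07. Among the printed windows, CYP81D8 was at 0.49, CRF6 at 0.34, AT2G41730 at -0.11 and NDA1 at -0.49, and none of these was called. SOT12, which was called, has no match in its 500 bases. A match of letters is not a shown binding site.

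Among genes of nonsense-mediated decay several were higher in anac017, the release factor gene ERF1-1 by more than 2-fold. This pathway destroys messenger RNAs whose translation stops too early, through the helicase UPF1 with UPF2 and UPF3 and the release factors that end translation. The list of 12 genes was drawn up after the values were seen, so its counts describe these libraries and are no test. Of the 12, 5 were called higher (either-direction background 0.892%), none lower, and the median difference was 0.23.

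ERF1-1 (AT5G47880, chromosome 5, 19386100 to 19388562), a gene of the release factor eRF1, had 6.13, 6.23 and 6.31 in anac017, against 5.0, 5.10 and 5.20 in anac082 (1.12 ± 0.10, 2.18-fold, adjusted p = 0.000456). The anac017 libraries lay well above those of anac082, and the call held with any of the 12 libraries left out.

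The rises of the other 4 were smaller. UPF1 (AT5G47010) had 5.63, 5.68 and 5.62 in anac017 against 5.16, 5.15 and 5.22 in anac082 (0.46 ± 0.07, adjusted p = 0.0185). UPF3 (AT1G33980) had 5.25, 5.29 and 5.27 against 4.65, 4.76 and 4.76 in anac082 (0.55 ± 0.09, adjusted p = 0.0252). For both the SD within a group was at most 0.06 and the groups were well apart. AT1G80000 (0.49 ± 0.09, adjusted p = 0.0316) and AT1G15280 (0.45 ± 0.08, adjusted p = 0.0316), both annotated as relatives of Barentsz, a part of the exon junction complex, were called as well. These 4 calls were lost without any of the 6 libraries (adjusted p = 0.0526 to 0.155), and those of AT1G80000 and AT1G15280 also without anac090 replicate 1 or wild type replicate 1, with AT1G15280 lost without wild type replicate 2 too.

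The other 7 members did not pass. The release factor gene AT1G18070, of the eRF3 type, was at 0.33 ± 0.11 (adjusted p = 0.229) with no overlap of its libraries. UPF2 was at -0.01 ± 0.10 (adjusted p = 0.986), and the other eRF1 genes ERF1-2 and ERF1-3 at 0.04 ± 0.11 and -0.03 ± 0.11. The exon junction genes Y14, MEE63 (a Mago homolog) and RH2 (of the eIF4A-III type) were at 0.13, -0.0026 and 0.05. Over these 6 genes, UPF2 included, adjusted p ranged from 0.635 to 0.995.

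**Figure D4:**
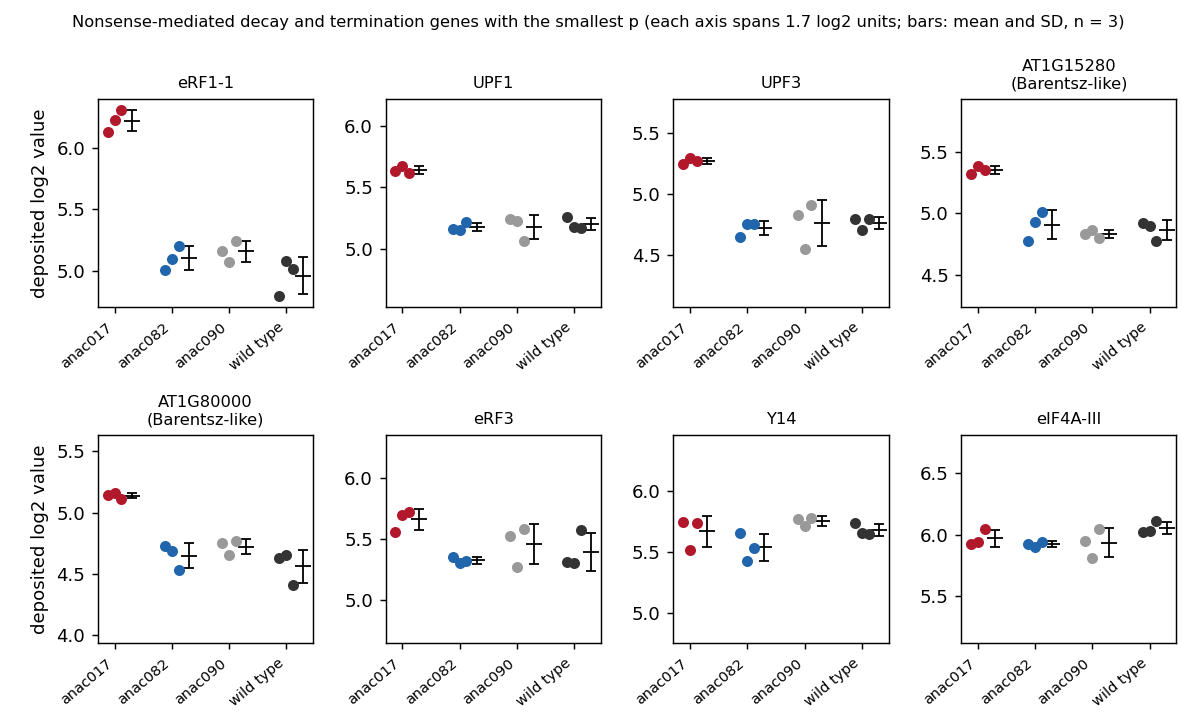
Deposited log2 values in every library for the 8 genes of nonsense-mediated decay and termination with the smallest p, with anac017 first, then anac082, anac090 and wild type, and bars for mean and SD (n = 3). In ERF1-1 the anac017 libraries sit at 6.13 to 6.31 and the anac082 libraries at 5.0 to 5.20.

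Antioxidant enzymes differed in 1 gene. Of 14 tested genes of scavenging of reactive oxygen species (ROS), 1 was called, against 0.892% of all genes. It was glutathione reductase 2 (AT3G54660, listed as EMB2360), which works in chloroplasts and mitochondria and had 7.45, 7.68 and 7.58 in anac017 against 6.86, 6.78 and 6.88 in anac082 (0.73 ± 0.12, 1.66-fold, adjusted p = 0.0204). The groups did not overlap, and the call was lost without any of the 6 libraries (adjusted p = 0.0594 to 0.1). The copper-zinc superoxide dismutase gene CSD1 was at 0.40 ± 0.19 (adjusted p = 0.468) and the ascorbate peroxidase gene APXS at 0.39 ± 0.19 (adjusted p = 0.492). The catalase genes CAT1 (AT1G20630), CAT2 (AT4G35090) and CAT3 (AT1G20620) were between -0.12 and 0.13.

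Salicylic acid (SA), the hormone of defence against biotrophic pathogens, was a pathway in which most differences were positive and none passed. Of 16 tested genes of SA synthesis, breakdown and regulation 15 had a positive difference (median 0.37, none called). Of 11 SA-responsive defence genes 9 did (median 0.73, none called). Both leaned on anac082 replicate 1, the library that stood apart: without it 11 of the 16 were positive with a median of 0.12, and 8 of the 11 with a median of 0.45. Without anac082 replicate 2 the median of the 16 was 0.68. PAD4, a regulator of SA accumulation, had 6.59, 6.62 and 6.58 in anac017 against 5.48, 6.05 and 5.82 in anac082, with no overlap (0.81 ± 0.28, adjusted p = 0.281). The defence marker PR1 had 8.67, 9.11 and 9.91 in anac017 against 6.66, 9.17 and 9.52 in anac082, and the groups overlapped (0.78 ± 0.79, adjusted p = 0.768). The mean log2 value of the 11 responsive genes was 5.68, 5.98 and 5.96 in anac017 and 4.52, 5.89 and 5.29 in anac082, where replicate 1 was the lowest.

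Senescence-associated genes had the highest list median, 0.78, and all 9 tested members had a positive difference, with none called. Without anac082 replicate 1, 8 of the 9 did, with a median of 0.54. The sucrose transporter gene SWEET15, known as SAG29, had 0.61, 1.83 and 4.18 in anac017 against 0.08, 0.00 and 0.22 in anac082. Every anac017 library was above those of anac082, but they were far apart among themselves (2.11 ± 0.71, adjusted p = 0.270). Its means were 0.10 in anac082, 0.68 in anac090 and 0.20 in wild type. SWEET15 thus passed the filter on low values only through its anac017 libraries, and the count of 9 includes it. The members SAG12 and ENDO1 were under that filter. The phosphatase gene HAI1 was at 1.22 ± 0.45 (adjusted p = 0.319). Of 23 tested NAC factors of stress and senescence 19 had a positive difference, with a median of 0.30 and none called. Without anac017 replicate 1 that median was 0.14, and without anac082 replicate 1 it was 0.18. NAC002, known as ATAF1, was the lowest at -0.46 ± 0.21 (adjusted p = 0.457).

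In secondary metabolism, 8 of 9 tested camalexin and indole glucosinolate genes were higher in value in anac017 (median 0.69) and none passed. The regulator MYB51 had 5.70, 5.17 and 5.47 in anac017 against 4.64, 4.85 and 4.77 in anac082 (0.69 ± 0.17, adjusted p = 0.116). CYP79B3, the first enzyme of the pathway, was at 0.59 ± 0.15 (adjusted p = 0.136), and it passed with the replicate block (adjusted p = 0.0271). The list median was 0.43 without anac082 replicate 1. Aliphatic glucosinolate genes, which use methionine, had a median of -0.38 over 12 with none called, the lowest p being that of CYP79F2 (-0.49 ± 0.20, adjusted p = 0.391). Their median was -0.23 without anac082 replicate 3. Anthocyanin genes had a median of 0.59 over 9 with none called, with chalcone synthase CHS at 1.27 ± 0.57 (adjusted p = 0.439). Without anac017 replicate 3 that median was 0.24.

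Negative differences were seen in all 8 tested type-A response regulator genes, whose products hold back cytokinin signalling (median -0.60), and none passed. Without anac082 replicate 1, 2 of the 8 were positive and the median was -0.40. ARR15 had 0.15, 0.54 and 1.05 in anac017 against 1.76, 1.53 and 1.39 in anac082, without overlap (-0.98 ± 0.34, adjusted p = 0.283), and ARR8 was at -0.41 ± 0.12 (adjusted p = 0.206). Of 16 jasmonate genes 6 had a positive difference (median -0.26, none called), with MYC2, the central factor of the pathway, at -0.40 ± 0.13 (adjusted p = 0.233). The jasmonate median ranged from -0.41 without anac017 replicate 2 to -0.08 without anac017 replicate 3, and was -0.10 without anac082 replicate 3.

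Ribosome assembly in the nucleolus, the process ANAC082 is known to watch over, held no called gene among 23 tested: the median was 0.06 and the range -0.12 to 0.32. Nucleolin NUCL1 had the smallest p, at 0.32 ± 0.15 (adjusted p = 0.471). The lists of chlorophyll synthesis (15 tested, median -0.04), chlorophyll breakdown (11, -0.02), ROS and stress factors (16, 0.21), protein folding in the endoplasmic reticulum (14, 0.10), heat shock (5, 0.26), cold and abscisic acid (12, 0.18) and iron (11, -0.10) had no called member. The sign of several of these small medians turned when 1 library was left out. For folding in the endoplasmic reticulum it was -0.33 without anac082 replicate 1, and for ROS and stress factors -0.17 without anac017 replicate 1. Nor had the 17 clock genes (median 0.07). The morning gene CCA1 had 4.95, 5.63 and 5.49 in anac017 and 5.43, 6.07 and 6.02 in anac082 (-0.48 ± 0.24, adjusted p = 0.5) and passed with the replicate block (adjusted p = 0.0135). In both groups replicate 1 was the lowest.

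**Figure D5:**
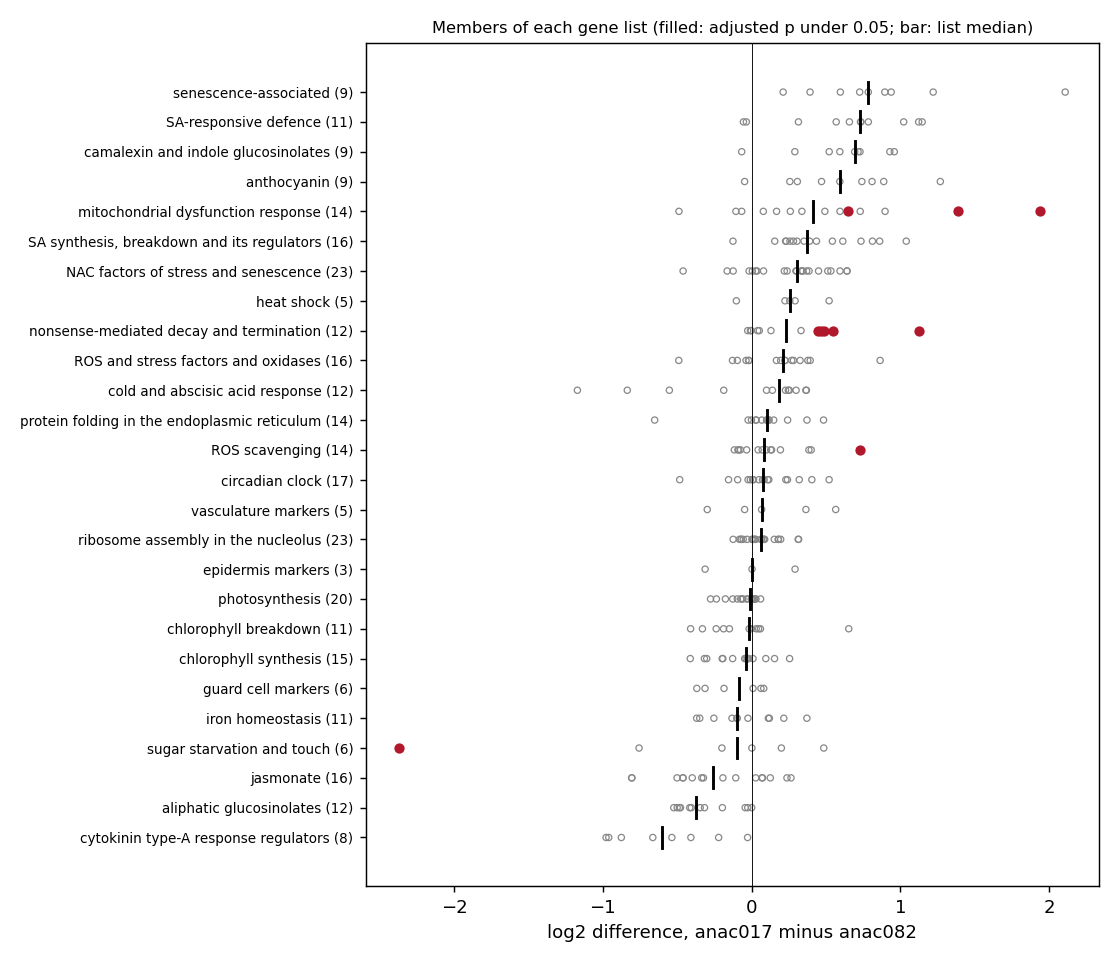
Log2 difference (anac017 minus anac082) of every tested member of each gene list other than the targeted NAC genes, with filled points for an adjusted p under 0.05, a bar at the list median and the number of tested members in brackets. Filled points appear in 4 of the lists shown: nonsense-mediated decay (5), mitochondrial dysfunction response (3), ROS scavenging (1) and sugar starvation and touch (1, QQS at -2.37).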

How the data were processed

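Poly(A) RNA of 12 leaf libraries was made into strand-specific libraries and sequenced on an Illumina HiSeq instrument, per the labels' protocols. CASAVA 1.8.2, TopHat, Cufflinks and TAIR10 are named in the submitters' processing notes, without roles. The deposited values are log2 values, treated as log2(abundance + 1) with a pseudocount of 1 built in. Sorted values differ by at most 0.0818 between libraries, so the libraries had been quantile normalized. Such values hide a shift common to most genes. Depth is unknown, so no counting interval is given. A gene at 0 is called listed at 0.

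Groups and replicate numbers come from the titles. Entries without an identifier (529 of 33726, 1.57%) were left out. Tested were genes whose abundance (2 to the power of the value, minus 1) averaged at least 1 across all 12 libraries. Testing used limma 3.58.1 under R 4.3.3 (lmFit, contrasts.fit, eBayes with trend), two-sided, with 4 groups in the model, 8 residual degrees of freedom and Benjamini-Hochberg adjustment over all genes tested. The fit was tested on simulated data in which each library scattered independently, so effects shared by replicates were not covered. Fold changes are on the deposited scale and understate those of low genes. Same-numbered libraries deviated together (correlations across genes 0.43, 0.19 and 0.29 for numbers 1 to 3). Unlike numbers gave -0.32 to 0.16, the highest for anac017 replicate 3 with anac082 replicate 2. The deviations are from the mean of each group of 3, so positive values for like numbers push those of unlike numbers down. The numbers are taken to pair the libraries, which is less clear for numbers 2 and 3 than for number 1. A fit with the replicate number as a block is given where it changes a call.

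Named are the 3 targeted genes, the 10 largest rises and falls among called genes whose libraries do not overlap, and of each of 28 lists the called members or up to 3 with the smallest p. Of the 344 members of these lists, 308 were tested, as were the 12 decay genes of a further list, from which an item withheld for evaluation is not reported here. The members and lists were chosen with earlier results of these data known, and the decay list and classes of genes after the values were seen. Positions are those of the table on TAIR10, counted from 1. At 63.4% of 16683 loci a boundary matched the TAIR10.1 annotation of RefSeq exactly, from which promoters were read. Alternatives were other samples, weights, filters, pseudocounts, centring and thresholds, the replicate block and each library left out.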

Additional observations from a re-analysis of the deposited data

How the results depend on the processing

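With no filter, no trend, robust eBayes, a minimum of 5, a pseudocount of 0.1 or 5 or median centring, counts stayed within 1.5 times of 130 higher and 20 lower. They were 119 and 39 with the 6 libraries fitted alone, 200 and 55 with the replicate block, 309 and 155 with both, 42 and 6 at a threshold of 0.01, 605 and 335 with library weights, and 163 and 36 when both anac082 replicate 1 and anac090 replicate 3 were dropped. Leaving out each library in turn gave 29 to 210 higher and 6 to 71 lower. Weights, the block and the fits of 6 libraries thus raise the share of lower genes. ANAC082 was called under each of these settings. ANAC017 (0.83, adjusted p = 0.0204) missed the threshold of 0.01 and, without 1 library, differed by 0.79 to 0.87. The block changed no call of a named gene but those of CCA1, CYP79B3 and AT5G09300. Signs turned in genes near 0: ERF1-3 (0.018 with weights and 0.045 without the pair of libraries) and RVE8 (-0.022 without that pair). With each library left out, NAC090 ranged from -0.20 to 0.53, UPF2 from -0.10 to 0.064, MEE63 from -0.041 to 0.030, RAB18 from -0.019 to 0.65, CER1 from -0.24 to 0.72, ATML1 from -0.084 to 0.17, ERF1-2 from -0.056 to 0.12, ERF1-3 from -0.11 to 0.045 and RVE8 from -0.022 to 0.42. The causes were not tested. With 3 libraries a group, unknown depth and knockout labels that transcript levels cannot check, directions are those of the labelled libraries only.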

Other observations

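Some called genes outside the lists are described here, chosen after their values were seen. Their calls, and those of AT2G13970 and AT4G39925 above, were not followed gene by gene with a library left out. Of the 28 called genes named by rule or list, 17 lost their call without some library. The word chloroplast stands in the description of 15 of the 130 genes called higher (11.5%), against 7.82% of all genes tested. The shares are close, so the count is not read as a trait of the called genes. The genes of chloroplast proteins given next are single examples. CPFTSY, the receptor that docks proteins at the thylakoid membrane, had 5.84, 5.74 and 5.82 in anac017 against 4.77, 4.75 and 4.69 in anac082 (1.06 ± 0.08, adjusted p = 0.000228). The thylakoid processing peptidase gene TPP1 had 7.92, 7.90 and 7.96 against 7.17, 7.08 and 7.12 in anac082 (0.80 ± 0.08, adjusted p = 0.00145). RNR1, an exoribonuclease of chloroplasts and mitochondria, was higher by 0.83 ± 0.13 (adjusted p = 0.0154), and ALB3L1, a relative of a thylakoid membrane insertase, by 0.54 ± 0.08 (adjusted p = 0.00999). In these genes the wild type libraries lay below those of anac017.

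The MADS-box gene MAF3, a repressor of flowering related to FLC, had 5.0, 4.87 and 4.99 in anac017 against 3.78, 4.11 and 4.17 in anac082 (0.93 ± 0.13, adjusted p = 0.00907). IDN2, which acts in RNA-directed DNA methylation, was lower, at 2.26, 2.24 and 2.07 in anac017 against 2.90, 2.78 and 2.83 in anac082 (-0.64 ± 0.09, adjusted p = 0.00949). In other genes it was the anac082 libraries that stood alone. PSF1, a subunit of the GINS complex of DNA replication, had 3.42, 3.28 and 2.97 in anac017 and 1.85, 2.23 and 2.18 in anac082 (1.14 ± 0.17, adjusted p = 0.0121), with wild type at 3.40, 3.33 and 3.16. PFD1, a prefoldin subunit, had 4.38, 4.30 and 4.17 in anac017 and 3.48, 3.38 and 2.87 in anac082 (1.04 ± 0.18, adjusted p = 0.0272), with wild type at 4.38, 4.06 and 4.29.

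Upstream open reading frames in the table are entries as long as genes (907 to 5414 bases) that lie over their hosts for at least 95.3% of their length, so reads of an entry and its host cannot be told apart. Of 33 tested, 2 were higher, against 0.773% of all genes: CPuORF19 (host AT1G36730) by 0.78 ± 0.09 (adjusted p = 0.00322) and CPuORF14 (host AT5G52550) by 0.53 ± 0.09 (adjusted p = 0.0219). The cyclophilin gene CYP21-2, which averaged 0.15 in wild type, averaged 3.71 in anac017 and 3.6 in anac082, a difference of 0.12 ± 0.11 (adjusted p = 0.752). Its anac090 mean was 3.66.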
